A study of Mus musculus with 5 samples.

Results

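The respiratory chain of liver non-parenchymal cells was examined through 99 genes, 13 encoded by mitochondrial DNA and 86 by nuclear DNA, of 19736 genes listed in the tables of 5 single-cell libraries. They were chosen by symbol alone, as the mitochondrial protein genes and the nuclear genes named for subunits of complex I (Nduf), complex II (Sdh), complex III (Uqcr), complex IV (Cox) and complex V, the ATP synthase (Atp5). Mitochondrial and nuclear members numbered 7 and 39 for complex I, 0 and 4 for complex II, 1 and 8 for complex III, 3 and 18 for complex IV and 2 and 17 for complex V. Of the 99 members, 96 had a column in every table, and a gene without a column counted as 0 molecules there. Ndufa4 and its paralogue Ndufa4l2 were kept with complex I because of their symbols, although the NDUFA4 protein is known as a subunit of complex IV. Cox7b2 had no molecule in the cells retained, Cox8b had 3 and Ndufb11b had 5.

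Complexes I to IV hand electrons from NADH and succinate to oxygen, complexes I, III and IV pump protons across the inner mitochondrial membrane, and complex V uses the returning protons to make ATP. Mitochondrial DNA encodes core subunits of complexes I, III, IV and V and is transcribed into long precursors that are cut into messengers, whereas complex II is built from nuclear genes alone. Most nuclear subunits are shared by all cell types, but some subunits of complex IV exist as alternative isoforms of muscle, lung or other tissues.

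Cells came from mice after partial ligation of the inferior vena cava (pIVCL), which congests the liver with venous blood, or after sham surgery. Mice of both groups were male and wild type, 9 weeks old at surgery and 2 weeks past it at collection, and the labels name no strain. There were 3 pIVCL libraries and 2 sham libraries, made with BD Rhapsody whole-transcriptome chemistry, in which each captured RNA molecule carries a molecular identifier and is counted as 1. Livers were digested with pronase and collagenase, slow spins depleted hepatocytes, and a Percoll gradient removed erythrocytes and dead cells. The library pIVCL 1 and both sham libraries belonged to batch 2021.3 and pIVCL 2 and pIVCL 3 to batch 2021.7, so a comparison within a batch is possible for pIVCL 1 alone. The labels describe each library as coming from a mouse without stating that the mice were different animals, and the p-values below therefore reflect library-to-library spread that may be technical.

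The pIVCL libraries held 2680 to 5000 cells and 12448260 to 24400965 molecules, against 4056 to 4735 cells and 25035721 to 30523228 molecules in sham. Cells with more than 25% of their molecules from the mitochondrial genes were left out, and these were 2.09, 29.9 and 11.0% of the cells in pIVCL 1 to 3, against 6.17 and 5.52% in sham 1 and 2. When they were kept, and the filters on molecules, genes and doublets still applied, 678 of the remaining 856 such cells in pIVCL 2 fell into the hepatocyte class, and 187 of 248 in pIVCL 3, against 105 of 180 in sham 1 and 31 of 107 in sham 2. After all filters 16672 cells remained in 31 clusters built without the 99 members. Named clusters passed 4 to 10 markers of their class, and 7 clusters with 1601 cells stayed unnamed. Between 8 and 30 cell barcodes were shared by any pair of libraries. The largest classes were endothelial cells (8527), Kupffer cells, the resident macrophages of the liver (2238), and stellate cells or fibroblasts (822).

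Mitochondrially encoded molecules made up the larger part of the respiratory chain signal in every non-parenchymal class, and B cells and cholangiocytes, the cells that line bile ducts, carried the highest shares. B cells held 13.1 ± 2.51% of their molecules in the 13 mitochondrial genes and cholangiocytes 11.9 ± 0.945% (mean ± SD over 5 libraries). Endothelial cells held 7.77 ± 0.578% and Kupffer cells 7.51 ± 0.504%, the lowest of 10 classes with at least 10 cells in every library. Between these ends lay stellate cells or fibroblasts (10.3%), T cells (9.62%), plasmacytoid dendritic cells (9.44%), conventional dendritic cells (9.004%), NK cells or ILC1 (8.59%) and monocytes (8.08%). Neighbours in this order overlapped in their library ranges.

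The 86 nuclear genes followed another order. Cholangiocytes were again high, at 1.41 ± 0.0562% of molecules, and their lowest library (1.35%) lay above the highest T cell library (1.196%). Plasmacytoid dendritic cells (1.27%), NK cells or ILC1 (1.203%), conventional dendritic cells (1.18%) and T cells (1.17%) followed, with overlap between neighbours, although every plasmacytoid dendritic cell library (lowest 1.21%) lay above the highest T cell library. Kupffer cells (1.04%), monocytes (1.01%) and endothelial cells (0.965%) came next, all with ranges below that of T cells. B cells (0.870%) and stellate cells or fibroblasts (0.860%) were lowest, although the highest stellate library (0.928%) just passed the lowest endothelial library (0.927%). B cells therefore had 15.1 ± 2.66 mitochondrially encoded molecules per nuclear encoded molecule and stellate cells 11.99 ± 1.95, against 7.17 to 8.45 in the other 8 classes.

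The hepatocyte class, residual after depletion, held 2.87 ± 0.256% of its molecules in the nuclear members and 4.01 ± 1.82% in the mitochondrial ones (SD, n = 4 libraries, leaving out sham 2 with 4 such cells). Of 85 nuclear members with any molecule, 73 were highest in that class, among them Atp5g3, which encodes the c-ring subunit of ATP synthase (2026 ± 392 molecules per 1000000), and Uqcrq, a small subunit of complex III (1141 ± 273, 7.89 times the median class). These hepatocytes are the ones under the 25% limit, so their mitochondrial share is bounded by the filter. B cells were highest for 12 of the 13 mitochondrial genes and cholangiocytes for mt-Co1. Cox6a1, the widely expressed form of a complex IV subunit, was among the flattest members, with its highest class 1.248 times the median class.

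The mitochondrially encoded share was lower after pIVCL in most classes, while the nuclear encoded share was not. It was below both sham libraries in every pIVCL library for 7 of 10 classes (B cells, cholangiocytes, endothelial cells, monocytes, NK cells or ILC1, plasmacytoid dendritic cells and T cells). Endothelial cells had 7.33, 7.85 and 7.05% mitochondrially encoded molecules in pIVCL 1 to 3, against 8.42 and 8.21% in sham 1 and 2. Monocytes had 6.96, 7.79 and 6.31% in pIVCL and 9.45 and 9.89% in sham, and B cells 11.7, 11.3 and 11.0% in pIVCL and 16.5 and 15.1% in sham. Kupffer cells overlapped, with 7.27 ± 0.536% in pIVCL and 7.87 ± 0.135% in sham (SD, n = 3 and 2). Nuclear shares of the endothelial class were 1.02, 0.954 and 0.966% in pIVCL and 0.956 and 0.927% in sham, which overlap. In NK cells or ILC1 alone did the nuclear share not overlap, being higher at 1.27, 1.22 and 1.196% in pIVCL against 1.194 and 1.13% in sham. pIVCL 1, the library of the sham batch, had a nuclear share above both sham libraries in 7 of 10 classes. Its mitochondrially encoded share was below both sham libraries in all 10. In those 7 classes the higher nuclear share also lowered its ratio of mitochondrially to nuclear encoded molecules. A share in a summed class does not tell less RNA per cell from a changed mix of cells within the class.

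The ratio of mitochondrially to nuclear encoded molecules was lower after pIVCL in most of the same classes. In endothelial cells it was 7.15, 8.23 and 7.31 in pIVCL, against 8.81 and 8.86 in sham, a mean difference of -0.23 on the log2 scale. In monocytes it was 6.72, 7.94 and 6.12 in pIVCL and 9.27 and 10.2 in sham (-0.49), and in NK cells or ILC1 6.18, 6.47 and 6.32 in pIVCL and 8.46 and 8.43 in sham (-0.42). Every pIVCL library lay below both sham libraries in 6 of 10 classes, with T cells (-0.17), B cells (-0.42) and plasmacytoid dendritic cells (-0.24) as the others. Kupffer cells (-0.04), cholangiocytes (-0.11), conventional dendritic cells (-0.37) and stellate cells or fibroblasts (0.07) overlapped, the last with 9.64, 15.0 and 12.2 in pIVCL and 11.1 and 11.9 in sham. Within batch 2021.3 the difference for pIVCL 1 was -0.30 in endothelial cells, -0.53 in monocytes, -0.45 in NK cells or ILC1 and -0.26 in stellate cells or fibroblasts.

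These differences are descriptions, and they depended on the filter for mitochondrial share. With at most 10% mitochondrial molecules and at least 1000 molecules per cell, the log2 difference was -0.29 in monocytes, -0.17 in NK cells or ILC1, -0.09 in T cells, -0.06 in conventional dendritic cells and 0.21, of opposite sign, in B cells. Without any limit it was -0.56 in stellate cells or fibroblasts. Without pIVCL 2 the difference in conventional dendritic cells was -0.57, and without pIVCL 3 it was -0.22. The 10 classes come from the same 5 libraries and are not independent of each other.

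**Figure D1:**
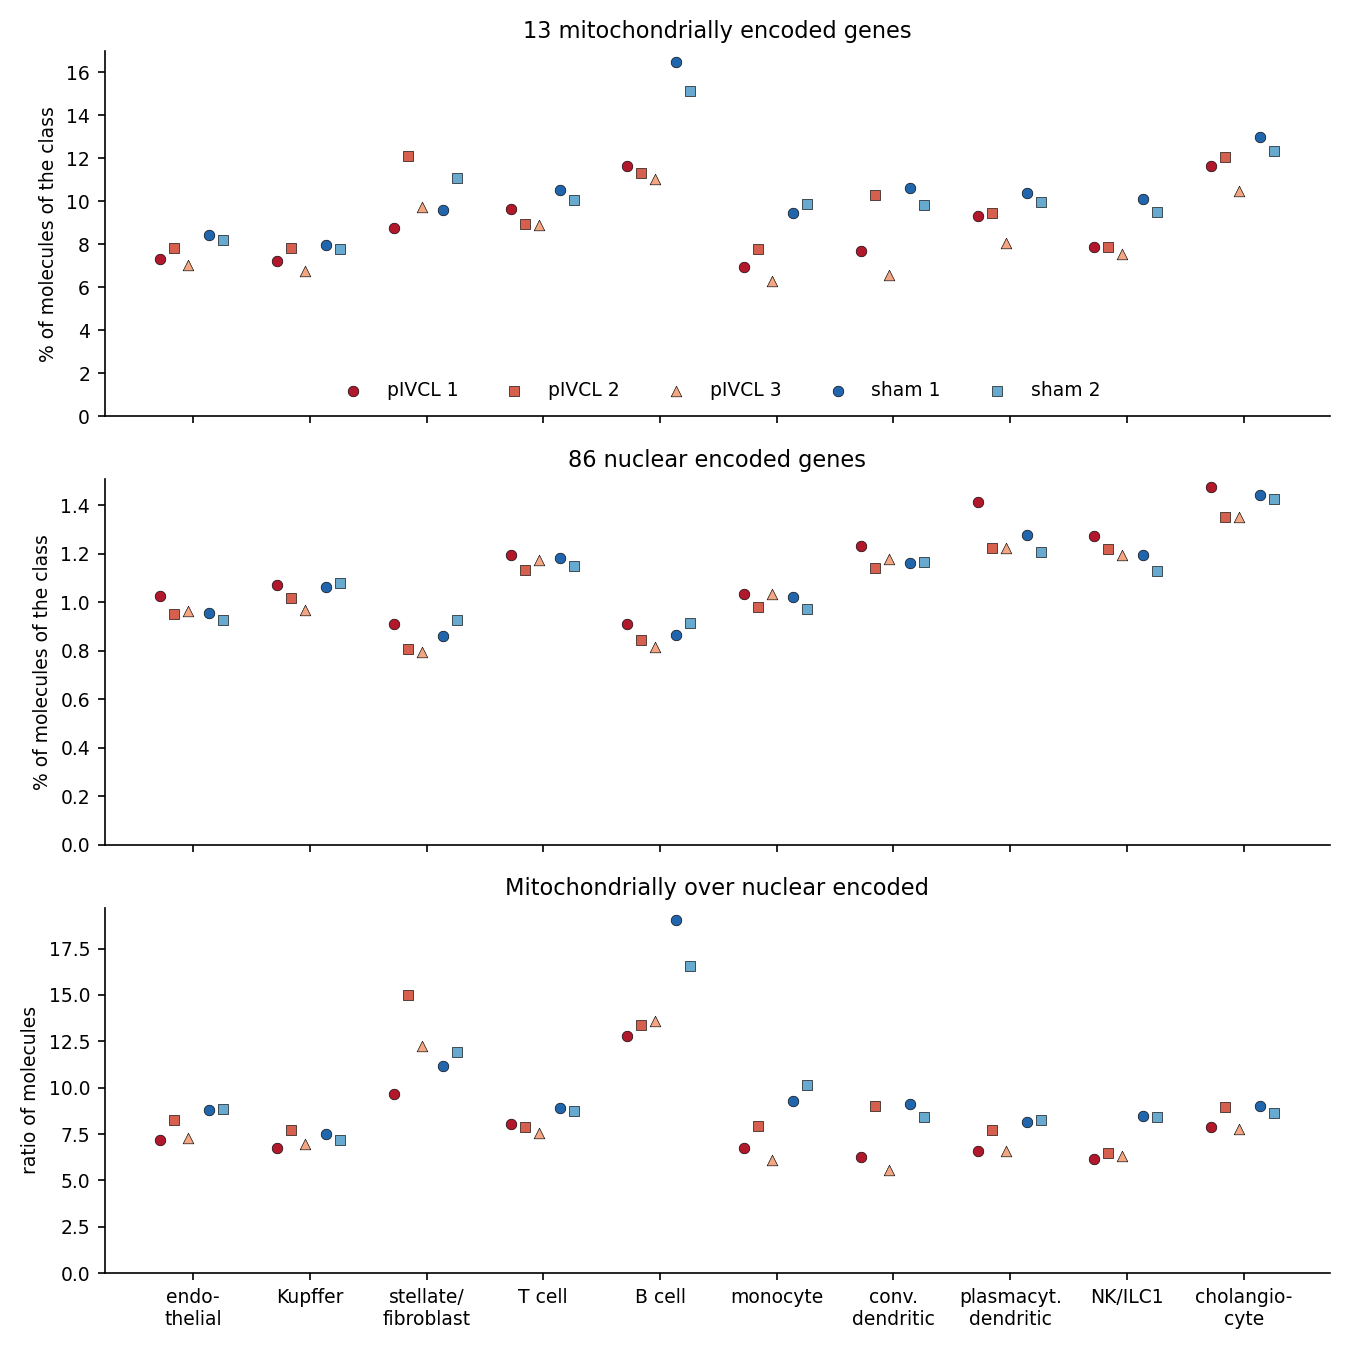
Share of each class's molecules from the 13 mitochondrial genes (top, percent), from the 86 nuclear genes (middle, percent) and the ratio of the 2 sums (bottom), by cell class; each point is 1 library, red shades for pIVCL 1 to 3 and blue shades for sham 1 and 2. The ratio is 12.8 to 13.6 in pIVCL and 16.6 to 19.0 in sham B cells, and the red points lie below both blue points in 6 of 10 classes.

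The makeup of the mitochondrial fraction differed between libraries more than between cell types for most genes, though not for mt-Co1 and mt-Nd5. mt-Co1, the catalytic core of complex IV, was the most abundant member in every class, with 22.7 to 30.8% of mitochondrially encoded molecules in pIVCL libraries and 23.6 to 32.5% in sham libraries over 10 classes. Its log2 share varied with an SD of 0.06 between libraries and 0.08 between classes. mt-Nd4l, a small membrane subunit of complex I, made up 1.81 to 3.06% in pIVCL and 3.03 to 4.23% in sham, and within each class every pIVCL library was below both sham libraries. Its share varied with an SD of 0.33 between libraries and 0.11 between classes. mt-Co3, another core subunit of complex IV, went the other way in all 10 classes, with 4.41 to 6.83% of the pIVCL fraction against 3.48 to 4.79% of the sham fraction. mt-Nd4 was higher without overlap in 9 classes (10.5 to 15.6% in pIVCL, 9.46 to 11.7% in sham) and mt-Nd5 lower in 9.

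Some mitochondrial genes set 1 library apart rather than a group. mt-Atp8, a small subunit of ATP synthase, held 0.220 to 0.706% of mitochondrially encoded molecules in pIVCL 1, 0.856 to 1.37% in pIVCL 2, 0.690 to 1.05% in pIVCL 3 and 0.645 to 1.11% in the sham libraries. Its SD was 0.65 between libraries and 0.19 between classes. mt-Nd2, a proton-pumping subunit of complex I, averaged 14.7% in pIVCL 2, against 9.13% in pIVCL 1, 10.5% in pIVCL 3, 12.1% in sham 1 and 10.9% in sham 2. mt-Atp6 averaged 5.19 and 5.49% in pIVCL 2 and 3, against 8.43% in pIVCL 1 and 7.31 and 8.26% in sham 1 and 2. mt-Cytb averaged 6.43 and 6.97% in pIVCL 2 and 3, against 8.44% in pIVCL 1 and 8.32 and 8.25% in sham 1 and 2. mt-Nd6, the member encoded on the opposite strand to the rest, held at most 0.0941% in any of these libraries and classes. Molecules were not divided by gene length, so shares are compared here between libraries and classes for the same gene.

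**Figure D2:**
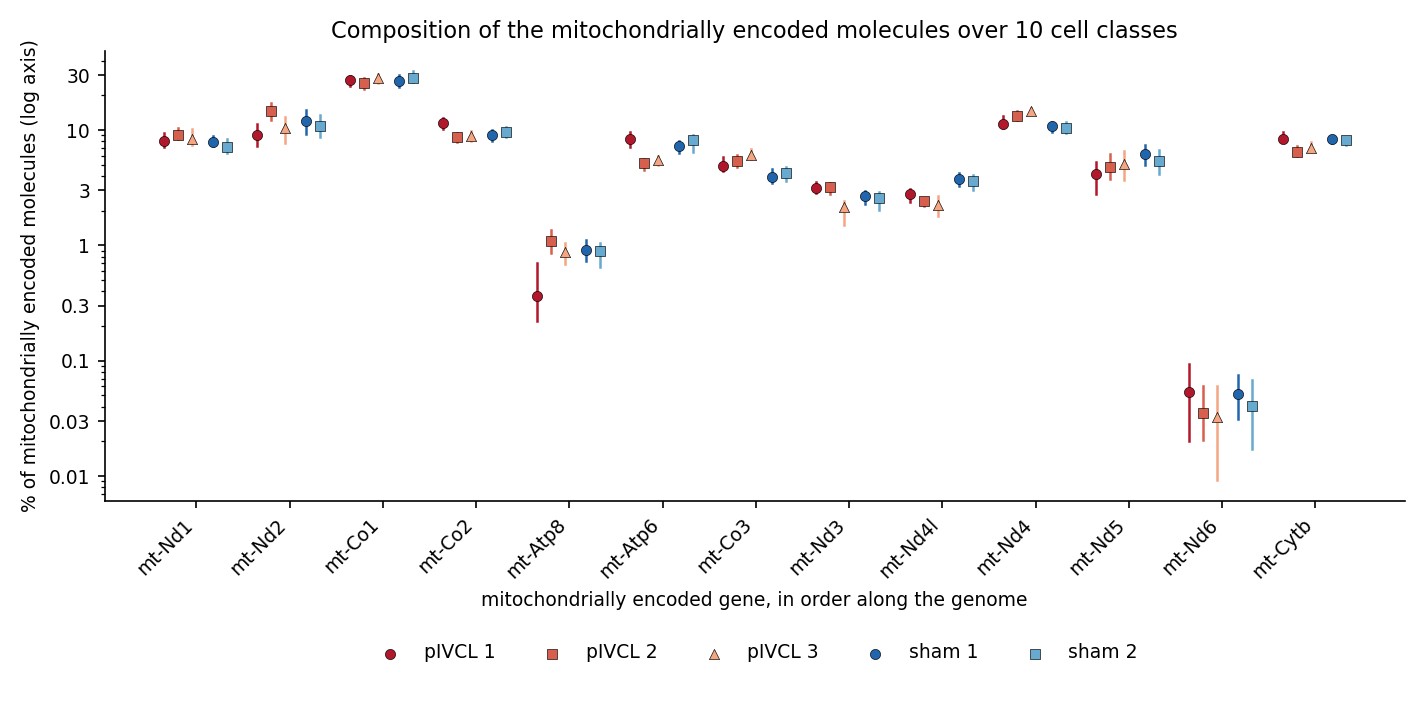
Percent of mitochondrially encoded molecules (log axis) for each of the 13 genes in genome order; points are means over 10 cell classes for each library, bars run from the lowest to the highest class, red shades are pIVCL and blue shades sham. mt-Nd4l lies at 2.26 to 2.78% in the pIVCL libraries and 3.60 to 3.79% in the sham libraries, and mt-Atp8 stands apart at 0.366% in pIVCL 1.

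mt-Nd4l and mt-Nd4 are known to share a messenger whose reading frames overlap, and so are mt-Atp8 and mt-Atp6. In the mouse annotation (GENCODE vM21, GRCm38) mt-Nd4l spans MT:9877-10173 and mt-Nd4 MT:10167-11544, sharing 7 bases on the plus strand. mt-Atp8 spans MT:7766-7969 and mt-Atp6 MT:7927-8607, sharing 43 bases. The last 60 bases of the upstream gene of each pair, MT:10114-10173 and MT:7910-7969, are shown. Molecules that reach the shared bases at the end of this stretch can be given to either gene. Capitals mark the bases that belong to both genes.
mt-Nd4l: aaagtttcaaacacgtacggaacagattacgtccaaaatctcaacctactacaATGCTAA
mt-Atp8: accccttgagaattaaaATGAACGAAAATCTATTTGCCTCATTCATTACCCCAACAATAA
Both capital runs open with the start codon ATG of the downstream gene. The counts of overlapping genes depend on how the submitters' pipeline assigned such molecules, which is not given in the sources used here.

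mt-Nd4l molecules per 100 molecules of mt-Nd4 were lower after pIVCL in all 10 classes, with no overlap in any. Endothelial cells had 24.2, 19.1 and 14.9 in pIVCL 1 to 3, against 36.1 and 36.5 in sham 1 and 2. Kupffer cells had 22.5, 17.3 and 13.9 in pIVCL and 31.5 in each sham library. Over the 10 classes the values ran from 12.4 to 27.2 in pIVCL and from 30.9 to 37.6 in sham, and pIVCL 1, the library of the sham batch, ran from 20.5 to 27.2. mt-Atp8 per 100 mt-Atp6 did not separate the groups. It was 2.69 to 8.52 in pIVCL 1, below every sham value (9.89 to 14.7), but 18.8 to 26.9 in pIVCL 2 and 11.8 to 19.2 in pIVCL 3. pIVCL 2 and pIVCL 3 share batch 2021.7, and for this pair the libraries of that batch were high and pIVCL 1 was low.

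**Figure D3:**
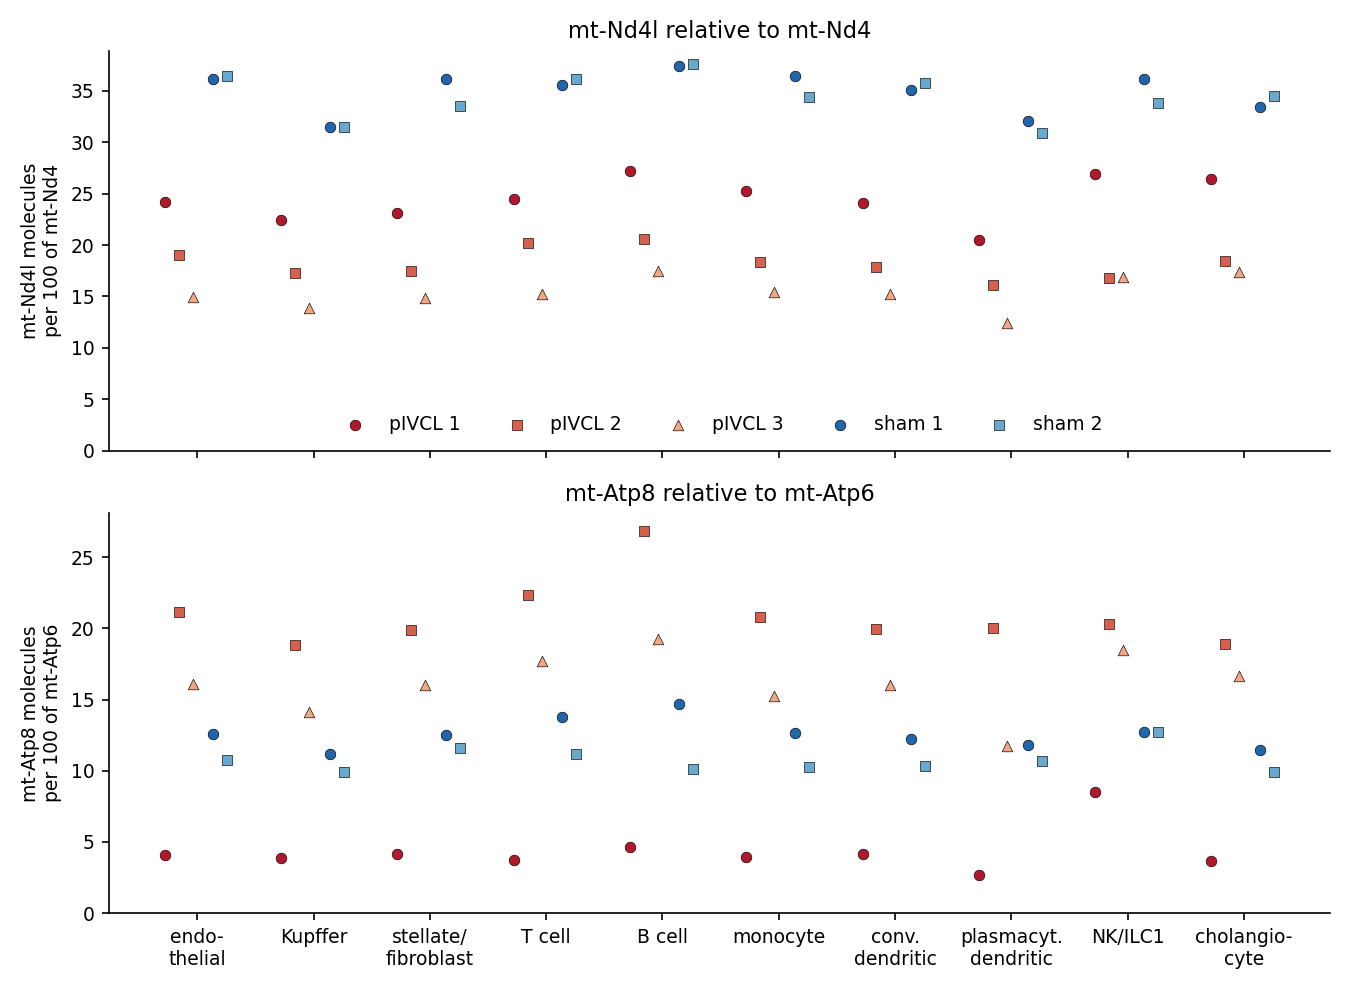
Molecules of mt-Nd4l per 100 of mt-Nd4 (top) and of mt-Atp8 per 100 of mt-Atp6 (bottom) by cell class; each point is 1 library, red shades for pIVCL and blue shades for sham. In the top panel the pIVCL points, up to 27.2, lie below the sham points, from 30.9; in the bottom panel pIVCL 1 lies lowest and pIVCL 2 highest in every class, with sham between.

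In tests of each class, mt-Nd4l was the only member that passed, and it fell in 3 classes. The test was edgeR's quasi-likelihood test on molecules summed per library and class, adjusted by Benjamini-Hochberg over all genes tested in the class at 0.05, and CPM denotes TMM-scaled molecules per 1000000. In endothelial cells mt-Nd4l had 2126, 2019 and 1475 CPM in pIVCL 1 to 3, against 3656 and 3524 CPM in sham 1 and 2 (log2 fold change -0.94, SE 0.18, adjusted p = 0.0237). In monocytes it had 2127, 1974 and 1443 CPM in pIVCL and 4049 and 4064 CPM in sham (log2 fold change -1.14, SE 0.20, adjusted p = 0.0276). In conventional dendritic cells it had 2179, 2540 and 1412 CPM in pIVCL and 4377 and 3904 CPM in sham (log2 fold change -1.02, SE 0.22, adjusted p = 0.0410). All pIVCL libraries were below both sham libraries in these classes, and likewise in the other 4 tested. There the log2 fold changes were -1.03 in NK cells or ILC1 (adjusted p = 0.0522), -0.65 in Kupffer cells (0.129), -0.53 in stellate cells or fibroblasts (0.360) and -0.66 in T cells (0.987), none of which passed. With pIVCL 1 alone against sham, within batch 2021.3, the endothelial log2 fold change of mt-Nd4l was -0.76, a value with no replicate in the pIVCL arm. The endothelial call was lost when the fit included batch (-0.76, adjusted p = 0.0814), and also without sham 1 (0.194), sham 2 (0.146) or pIVCL 2 (0.0683). The monocyte call was lost without sham 1 (0.826), sham 2 (0.226) or pIVCL 3 (0.0926) and when the fit included batch (0.202). The call in conventional dendritic cells was lost without sham 1 (0.223), sham 2 (0.0951), pIVCL 1 (0.164) or pIVCL 3 (0.0729) and when the fit included batch (0.533). In pIVCL 1 alone against sham both log2 fold changes were -0.93.

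Most other mitochondrial genes also had negative log2 fold changes, and none passed in this edgeR fit. In endothelial cells mt-Nd5, a proton-pumping subunit of complex I, had 2054, 2929 and 2413 CPM in pIVCL and 4323 and 3584 CPM in sham (log2 fold change -0.68, adjusted p = 0.0673). mt-Cytb, the cytochrome of complex III, had 6470, 4964 and 4672 CPM in pIVCL and 7552 and 7411 CPM in sham (-0.48, adjusted p = 0.142). mt-Atp6, the membrane channel subunit of ATP synthase, had 6397, 4108 and 3696 CPM in pIVCL and 6570 and 7346 CPM in sham (-0.56, adjusted p = 0.197). For all 3 genes the groups did not overlap, though pIVCL 1 lay close to sham for mt-Atp6. Among 16 alternative settings, some with 1 library in a group, mt-Nd5 passed in 7 and mt-Cytb and mt-Atp6 in 2 each. DESeq2 called 2 mitochondrial members in endothelial cells, both lower, beside 1125 of 11263 genes. The batch 2021.7 libraries were lowest for mt-Cytb and mt-Atp6. mt-Nd6 (-0.64, adjusted p = 0.145) and mt-Co1 (-0.25, 0.318) did not overlap either. mt-Co3 had 3252, 3727 and 3739 CPM in pIVCL, above 3037 and 3098 CPM in sham (0.22, adjusted p = 0.369). mt-Nd1 (-0.05), mt-Nd2 (-0.32), mt-Nd3 (-0.06), mt-Nd4 (-0.02), mt-Co2 (-0.17) and mt-Atp8 (-0.49) overlapped.

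Over the 7 tested classes, mt-Nd4l was below sham in all pIVCL libraries in 7, mt-Co1, mt-Cytb and mt-Nd5 in 6 and mt-Atp6 in 4, whereas mt-Co3 was above sham in 4. In each class 10.4 to 23% of all genes tested were higher in all pIVCL libraries, or lower in all. How many of all genes recur over as many classes was not counted, here or for the nuclear members below. The classes also come from the same 5 libraries. The median log2 fold change of the mitochondrial members was -0.32 in endothelial cells, -0.20 in Kupffer cells, 0.04 in stellate cells or fibroblasts, -0.19 in T cells, -0.47 in monocytes and -0.42 in both conventional dendritic cells and NK cells or ILC1. The nuclear members had medians of -0.09, -0.13, 0.02, -0.09, -0.04, -0.07 and 0.05 in the same order, beside medians from -0.00 to 0.02 over all genes tested. In pIVCL 1 alone against sham the log2 fold change of mt-Atp8 was -1.63 in endothelial cells, a value of 1 library, and no class called the gene over all 5 libraries.

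Against the background of all genes, calls among the members were few. In endothelial cells 5.79% of 11263 genes passed, 24.7% had an unadjusted p under 0.05, 22.1% were higher in all pIVCL libraries and 23.0% lower in all. Of the 92 members tested there, 1 passed (mt-Nd4l), 14 had an unadjusted p under 0.05, 15 were higher in all pIVCL libraries and 21 lower in all. In Kupffer cells 0.142% of 9831 genes passed, 14.3% had an unadjusted p under 0.05, 15.5% were higher and 16.2% lower in all pIVCL libraries. None of the 91 members tested by edgeR passed there, 19 had an unadjusted p under 0.05 and DESeq2 called 1, with 12 higher and 29 lower in all pIVCL libraries. Whether these shares differ from the background was not tested.

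In the smaller classes the counts were as follows. In stellate cells or fibroblasts 0.776% of 7993 genes passed, 12.2% had an unadjusted p under 0.05, and 17.5% and 16.2% were higher or lower in all pIVCL libraries. Of 92 members there 0 passed with edgeR, 9 had an unadjusted p under 0.05 and DESeq2 called 0, with 14 higher and 6 lower. In T cells 0.0% of 7608 genes passed with edgeR, DESeq2 called 1, 4.6% had an unadjusted p under 0.05, and 10.4% and 10.6% were higher or lower throughout. Of 88 members there 0 passed with edgeR, 6 had an unadjusted p under 0.05 and DESeq2 called 0, with 13 higher and 14 lower. In NK cells or ILC1 0.0% of 2876 genes passed with edgeR, DESeq2 called 2, 6.82% had an unadjusted p under 0.05, and 12.2% and 11.2% were higher or lower throughout. Of 70 members there 0 passed with edgeR, 8 had an unadjusted p under 0.05 and DESeq2 called 1 (mt-Nd4l), with 6 higher and 12 lower. In monocytes 0.136% of 5879 genes passed, 9.07% had an unadjusted p under 0.05, 13.5% were higher and 13.5% lower throughout, and of 86 members 1 passed, 10 had an unadjusted p under 0.05, 7 were higher and 17 lower. In conventional dendritic cells 0.461% of 6514 genes passed, 10.9% had an unadjusted p under 0.05, 14.8% were higher and 13.4% lower throughout, and of 86 members 1 passed, 22 had an unadjusted p under 0.05, 14 were higher and 20 lower. The members that fell short of the filter for low counts, 7 of 99 in endothelial cells and 29 in NK cells or ILC1, have no test.

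The nuclear members of endothelial cells had small log2 fold changes of both signs, and none of the 79 tested passed with edgeR, while 9 had an unadjusted p under 0.05 and DESeq2 called 1. Median log2 fold changes were -0.12 for complex I, 0.14 for complex II, -0.16 for complex III, 0.06 for complex IV and -0.03 for complex V. As a share of endothelial molecules, nuclear complex IV members held 0.274, 0.260 and 0.265% in pIVCL and 0.244 and 0.240% in sham, and complex II members 0.0344, 0.0345 and 0.0382% in pIVCL and 0.0298 and 0.0313% in sham. Both were higher without overlap, whereas complex I overlapped, with 0.303, 0.293 and 0.284% in pIVCL and 0.302 and 0.285% in sham. In Kupffer cells none of the 78 nuclear members tested passed with edgeR, 17 had an unadjusted p under 0.05 and DESeq2 called 0. Complex II members were again higher without overlap there, with 0.0491, 0.0454 and 0.0502% of molecules in pIVCL and 0.0430 and 0.0427% in sham. Complex III members were lower without overlap, with 0.0994, 0.0761 and 0.0724% in pIVCL and 0.1005 and 0.1036% in sham.

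For complex I, the catalytic subunits Ndufs1 (log2 fold change 0.26), which holds iron-sulphur centres, and Ndufv1 (-0.03), which binds NADH, did not pass. Ndufa4 had 163, 117 and 93.6 CPM in pIVCL and 196 CPM in each sham library (-0.65, SE 0.21, adjusted p = 0.112). In Kupffer cells Ndufa4 had 139, 107 and 84.3 CPM in pIVCL and 154 and 185 CPM in sham (-0.63, adjusted p = 0.222). The groups did not overlap in either class, and the batch 2021.7 libraries were lowest in both. Ndufa8, an accessory subunit of complex I, was higher in every pIVCL library in 5 of 7 classes, with a log2 fold change of 0.51 in Kupffer cells (adjusted p = 0.202), and overlapped in endothelial cells and in stellate cells or fibroblasts. Ndufa8 lies outside the rule for named genes and was picked after its values were seen, as were Uqcrq, Atp5g3, Uqcrb, Atp5j2, Atp5h and Cox7c.

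The membrane anchors of complex II had log2 fold changes of opposite sign. Sdhd, the small anchor subunit, had 100, 115 and 120 CPM in pIVCL, against 82.7 and 83.3 CPM in sham endothelial cells (log2 fold change 0.43, SE 0.13, adjusted p = 0.0930). In Kupffer cells Sdhd had 222, 224 and 245 CPM in pIVCL and 178 and 175 CPM in sham (0.39, adjusted p = 0.234). Every pIVCL library was above both sham libraries in 6 of 7 classes, the exception being monocytes. Sdhc, the other anchor, had 67.5, 59.0 and 46.5 CPM in pIVCL endothelial cells and 70.4 and 73.2 CPM in sham (-0.31, adjusted p = 0.279). In Kupffer cells Sdhc had 77.1, 57.9 and 46.6 CPM in pIVCL and 81.4 and 94.3 CPM in sham (-0.55, adjusted p = 0.262). pIVCL was lower for Sdhc without overlap in both classes, with pIVCL 1 nearest to sham. Sdha, the flavoprotein that oxidises succinate (0.09), and Sdhb, its iron-sulphur partner (0.20), overlapped in endothelial cells. None of these 4 genes passed.

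Complex III had the lowest nuclear median in both classes. Uqcrfs1, the Rieske iron-sulphur subunit, had 87.7, 62.0 and 60.6 CPM in pIVCL Kupffer cells and 102 and 103 CPM in sham (log2 fold change -0.56, adjusted p = 0.220), which do not overlap. Endothelial cells had 89.1, 48.9 and 48.5 CPM of Uqcrfs1 in pIVCL and 79.1 and 77.6 CPM in sham (-0.32, adjusted p = 0.479), with pIVCL 1 above sham and the batch 2021.7 libraries below it. Uqcrb, a structural subunit, had 188, 115 and 82.3 CPM in pIVCL endothelial cells and 208 and 216 CPM in sham (-0.71, adjusted p = 0.207). Uqcrc1, a core subunit, had 58.3, 56.1 and 53.6 CPM in pIVCL endothelial cells and 55.7 and 53.6 CPM in sham (0.04), which overlap.

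Several small subunits of complex IV had positive log2 fold changes that did not pass. Cox4i1, the regulatory subunit 4 in its common form, had 221, 265 and 245 CPM in pIVCL endothelial cells and 198 and 200 CPM in sham (log2 fold change 0.29, adjusted p = 0.199). Cox7b had 104, 107 and 106 CPM in pIVCL and 90.6 and 85.8 CPM in sham (0.26, adjusted p = 0.203). Cox7a2l, which helps to join complexes III and IV, had 283, 312 and 328 CPM in pIVCL and 253 and 245 CPM in sham (0.30, adjusted p = 0.181). Each was higher without overlap in endothelial cells, and Cox7a2 (0.29) was too. Cox4i1, Cox7b and Cox7c were higher in every pIVCL library in 5 of 7 classes, a recurrence not counted for all genes. Cox6a1 was lower without overlap, with 447, 420 and 368 CPM in pIVCL endothelial cells and 490 and 480 CPM in sham (-0.24, adjusted p = 0.309). Cox5a (-0.23) and Cox5b (-0.37), picked after their values were seen, were also lower without overlap, and Cox8a (-0.23) and Cox6b1 (0.06) overlapped. Cox6b2, a paralogue of Cox6b1 known from testis, gave the largest fold of the nuclear members in endothelial cells (2.93, adjusted p = 0.112) from 10, 3 and 5 molecules in pIVCL and 1 and 2 in sham.

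In complex V, Atp5j2, the f subunit of ATP synthase, had 97.2, 127 and 139 CPM in pIVCL endothelial cells and 76.8 and 82.5 CPM in sham (log2 fold change 0.60, SE 0.17, adjusted p = 0.0742). DESeq2 called it (0.61, adjusted p = 0.0250), and pIVCL 1 alone against sham gave 0.28. Kupffer cells had 101, 148 and 132 CPM of Atp5j2 in pIVCL and 75.9 and 86.6 CPM in sham (0.65, adjusted p = 0.177), and the gene was higher without overlap in 6 of 7 classes. Atp5b, the catalytic beta subunit, overlapped in endothelial cells (-0.01). Atp5h, the d subunit of the stalk, was lower in every pIVCL library in 5 of 7 classes and did not pass in any.

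**Figure D4:**
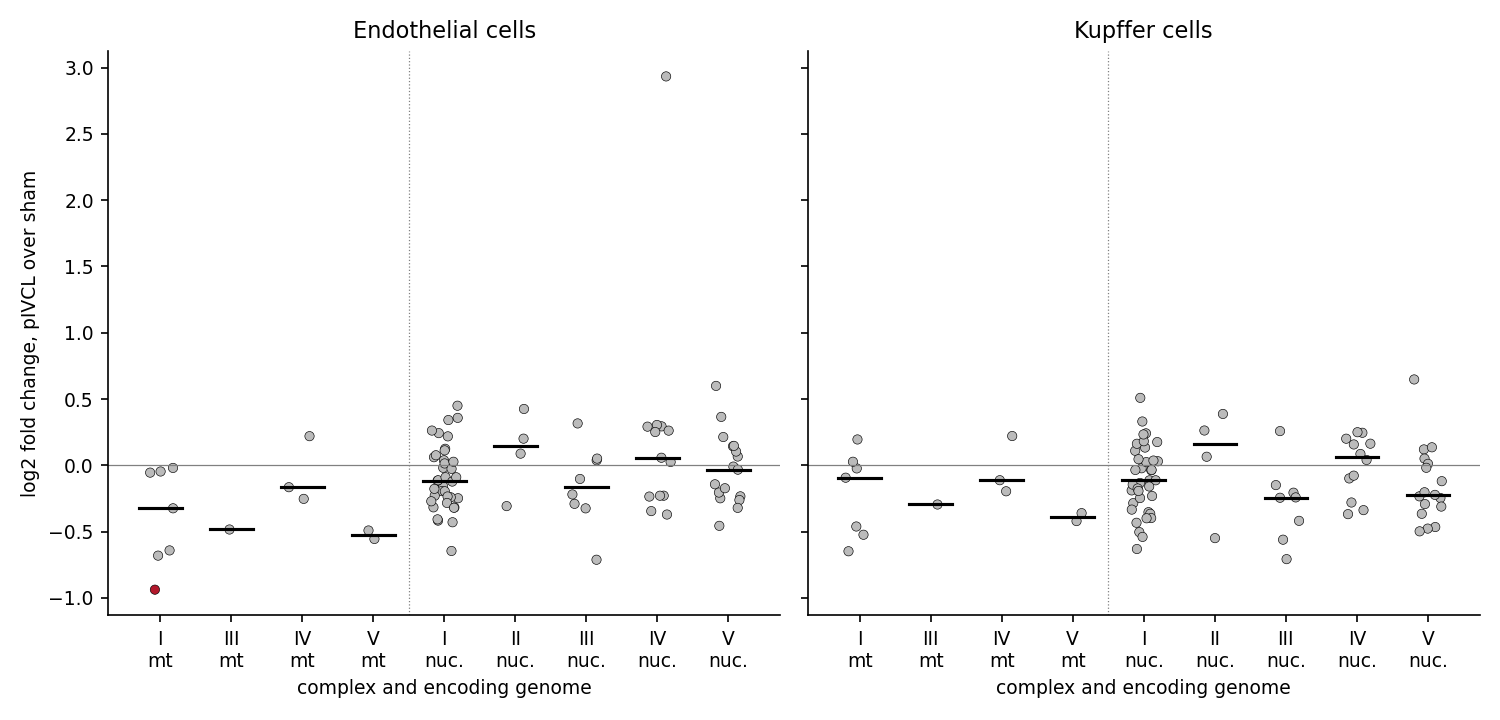
Log2 fold change, pIVCL over sham, of each member tested in endothelial cells (left) and Kupffer cells (right), by complex and by mitochondrial (mt) or nuclear (nuc.) encoding; points are genes, bars are medians, and red marks an adjusted p under 0.05. The red point is mt-Nd4l at -0.94 in endothelial cells, the isolated high point is Cox6b2 at 2.93, and the nuclear medians lie between -0.16 and 0.14 in endothelial cells and between -0.24 and 0.16 in Kupffer cells.

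In endothelial and Kupffer cells the number of members called was highest, among fits leaving out a pIVCL library, without pIVCL 1. Without pIVCL 1, the comparison sets the batch 2021.7 libraries against sham of batch 2021.3, and 29 members passed in endothelial cells (5 mitochondrial lower, 7 nuclear higher, 17 nuclear lower) and 15 in Kupffer cells (2 mitochondrial lower, 2 nuclear higher, 11 nuclear lower). In the same fits 22.9% of 11440 genes passed in endothelial cells and 5.59% of 10221 in Kupffer cells. Among them in endothelial cells were Ndufa4 (log2 fold change -0.88, adjusted p = 0.00173), Uqcrb (-1.08, 0.00176), Uqcrfs1 (-0.68, 0.00352) and Sdhd (0.50, 0.0102). For these members batch and surgery cannot be told apart. Without pIVCL 3 the endothelial count was 1, beside 258 of 11282 genes, and without pIVCL 2 it was 0, beside 200 of 11370 genes. With all libraries 652 of 11263 genes passed there.

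The effects in endothelial and Kupffer cells were not found to differ for any of the 92 members tested. The interaction of class and surgery was fitted in 1 model with library as a block, where 1.17% of 11964 genes passed and 12.9% had an unadjusted p under 0.05. With edgeR 0 of these 13 mitochondrial and 79 nuclear members passed, and 2 mitochondrial and 3 nuclear members had an unadjusted p under 0.05; DESeq2 was not run for this model. For mt-Nd4l the endothelial effect minus the Kupffer effect was -0.27 on the log2 scale (SE 0.11, adjusted p = 0.315).

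Cell composition and other RNA also differed between the groups. In endothelial cells most pIVCL cells lay in cluster 25 (36.6% of pIVCL and 1.203% of sham cells) and cluster 17 (18.6% of pIVCL and 1.899% of sham cells), and most sham cells in cluster 11 (3.49% of pIVCL and 31.2% of sham cells) and cluster 9 (1.48% of pIVCL and 27.4% of sham cells). Kupffer cluster 22 held 29.6% of pIVCL and 6.53% of sham cells. The summed hepatocyte list made up 0.0543, 0.0426 and 0.0474% of endothelial molecules in pIVCL and 0.0261 and 0.0144% in sham, with 3 of its 10 genes higher (Alb, Apoa1 and Ahsg, which encode plasma proteins, at 203 ± 38.4 CPM of Alb in pIVCL and 82.3 ± 34.0 CPM in sham). In stellate cells or fibroblasts the list made up 0.191, 0.157 and 0.139% in pIVCL and 0.0544 and 0.0398% in sham. In Kupffer cells it made up 0.143, 0.159 and 0.165% in pIVCL and 0.115 and 0.0977% in sham, with 0 of 9 genes passing with edgeR and 6 at an unadjusted p under 0.05. Outside the list, Fga and Plg were among the 14 genes that passed there. Both were leading genes of a hepatocyte cluster when no mitochondrial limit was set. Erythroid transcripts made up 0.00638, 0.0604 and 0.151% of Kupffer molecules in pIVCL and 0.000783 and 0.00397% in sham, and 0.00612, 0.0346 and 0.131% of endothelial molecules in pIVCL and 0.0139 and 0.00252% in sham. The erythroid groups overlapped in endothelial cells and not in Kupffer cells, with median log2 fold changes of 2.82 and 5.001, and in each class 0 of 5 genes passed with edgeR and 1 had an unadjusted p under 0.05. The single neutrophil transcript tested in endothelial cells, S100a9 (3.09), and the single platelet transcript tested in Kupffer cells, Pf4 (1.19), rose and passed with edgeR. The 2 neutrophil transcripts tested in Kupffer cells had log2 fold changes of -2.07 and 0.31. The 2 platelet transcripts tested in endothelial cells had -0.51 and 0.30. Neither of these pairs held a transcript that passed with edgeR. Genes induced by tissue dissociation made up 0.511, 0.330 and 0.154% of endothelial molecules in pIVCL and 0.416 and 0.738% in sham. The part of any of these in the differences of the members was not tested.

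Alternative isoforms marked single classes. In plasmacytoid dendritic cells, interferon-producing cells of the dendritic lineage, Cox6a2, the muscle form of complex IV subunit 6a, reached 1073 ± 162 molecules per 1000000 (SD, n = 5) and was the most abundant nuclear member. It made up 1351 of 1859 Cox6a molecules there, or 72.7% (95% Wilson interval 70.6 to 74.7%), with 67.1, 75.3 and 73.6% in pIVCL 1 to 3 and 72.4 and 71.5% in sham 1 and 2. In endothelial cells there were 5 Cox6a2 and 18972 Cox6a1 molecules. The next highest class by level was stellate cells or fibroblasts (9.69 molecules per 1000000), where 10 of the 11 Cox6a2 molecules came from sham 2. The pIVCL and sham shares overlapped.

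Stellate cells or fibroblasts carried 2 isoforms at higher shares than the other classes described. Ndufa4l2, a paralogue of Ndufa4 known as a target of hypoxia-inducible factor, reached 74.7 molecules per 1000000 and made up 331 of 857 molecules of the pair, or 38.6% (35.4 to 41.9%). Its share was 39.8, 38.1 and 47.4% in pIVCL and 33.7 and 23.1% in sham, higher without overlap, but its level was 102, 63.4 and 84.9 CPM in pIVCL and 75.5 and 57.1 CPM in sham, which overlap (log2 fold change 0.29, adjusted p = 0.750). Cox4i2, the form of subunit 4 known from lung, made up 8.58% of Cox4i molecules (6.78 to 10.8%), with 10.5, 8.91 and 4.17% in pIVCL and 4.88 and 12.8% in sham, which overlap. In endothelial cells the shares of the same isoforms were 0.158% for Ndufa4l2 and 0.0666% for Cox4i2.

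Cholangiocytes had Cox7a1, the form of subunit 7a known from muscle and heart, at 27.8 molecules per 1000000. It made up 23 of 154 Cox7a1 and Cox7a2 molecules, or 14.9% (10.2 to 21.4%), from 5, 6 and 1 Cox7a1 beside 15, 41 and 13 Cox7a2 molecules in pIVCL, and 6 and 5 beside 29 and 33 in sham. The shares overlap between groups. The hepatocyte class had 3.16% and Kupffer cells 1.65%. Intervals cover counting error only. Cox8b, a muscle form of subunit 8, was found in stellate cells or fibroblasts with 3 molecules against 1134 of Cox8a.

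**Figure D5:**
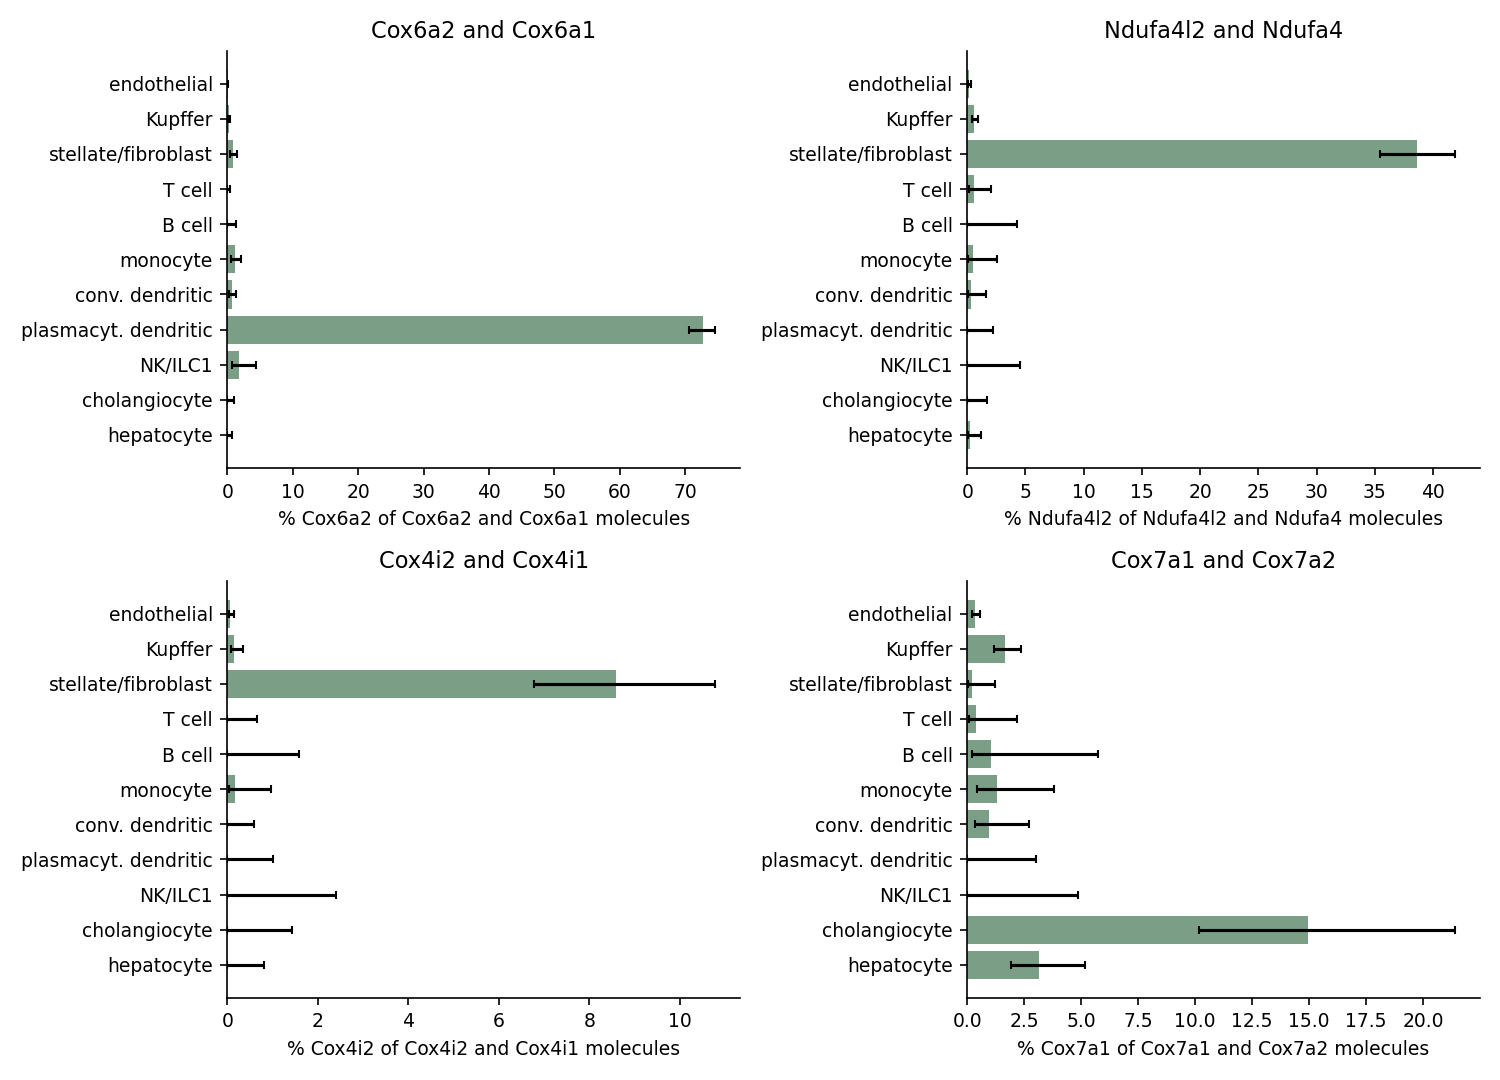
Percent of molecules from the alternative isoform in each of 4 gene pairs by cell class, summed over 5 libraries; bars start at 0 and whiskers are 95% Wilson intervals. Cox6a2 reaches 72.7% in plasmacytoid dendritic cells, Ndufa4l2 38.6% and Cox4i2 8.58% in stellate cells or fibroblasts, and Cox7a1 14.9% in cholangiocytes.

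The promoters of the common form Cox7a2 and the restricted form Cox7a1 differed in base composition. Of the 86 nuclear members 69 matched the RefSeq promoter table by symbol (GRCm38.p6, 250 bases before to 50 after the start). Cox6a2, Ndufa4l2 and Cox4i2 were not among the matched genes, so other restricted forms of the report could not be shown. The letters GCGCANGCG of the nuclear respiratory factor NRF1 were found on either strand in 29.0% of these 69 genes, beside 6.25% of 32851 windows in the table, and the letters CCGGAAGT of ETS factors in 7.25% beside 3.89%. The median window of the members held 19 CpG pairs and the median of all windows 7. The windows below are shown because Cox6a1 is among the flattest members, and Cox7a2 and Cox7a1 are the common and restricted forms of a subunit. They lie at chr5:115348909-115349208 on the minus strand (Cox6a1), chr9:79759804-79760103 on the minus strand (Cox7a2) and chr7:30183921-30184220 on the plus strand (Cox7a1), written 5′ to 3′ along the gene, with capitals for the NRF1 letters, of which the first run holds a pair of overlapping matches on opposite strands.
Cox6a1: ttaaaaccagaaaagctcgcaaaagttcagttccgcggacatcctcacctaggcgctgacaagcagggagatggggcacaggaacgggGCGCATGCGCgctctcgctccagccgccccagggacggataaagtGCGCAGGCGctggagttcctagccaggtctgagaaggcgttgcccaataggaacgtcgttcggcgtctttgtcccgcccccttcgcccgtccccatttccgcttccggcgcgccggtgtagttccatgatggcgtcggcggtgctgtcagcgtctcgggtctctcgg
Cox7a2: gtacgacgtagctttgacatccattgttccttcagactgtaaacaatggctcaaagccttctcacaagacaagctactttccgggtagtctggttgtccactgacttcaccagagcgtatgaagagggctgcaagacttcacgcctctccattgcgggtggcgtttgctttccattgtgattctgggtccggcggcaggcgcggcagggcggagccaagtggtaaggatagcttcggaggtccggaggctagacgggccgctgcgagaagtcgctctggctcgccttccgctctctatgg
Cox7a1: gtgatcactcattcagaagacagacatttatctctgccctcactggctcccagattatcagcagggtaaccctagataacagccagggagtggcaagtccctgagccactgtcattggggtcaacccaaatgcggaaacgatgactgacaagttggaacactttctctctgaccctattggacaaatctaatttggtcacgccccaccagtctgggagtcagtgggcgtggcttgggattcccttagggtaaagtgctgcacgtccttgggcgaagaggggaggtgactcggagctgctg
Cox6a1 holds 32 CpG pairs, Cox7a2 20 and Cox7a1 7. Neither Cox7a window holds the NRF1 or ETS letters, which says only that these letters are not in this window.

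Few other genes of mitochondrial function passed in endothelial cells. None of 52 assembly factors of the complexes passed with edgeR (4 at an unadjusted p under 0.05), nor any of 23 genes of electron carriers and exchangers (7) or 18 of the citrate cycle (3). Of 34 genes of mitochondrial transcription and RNA processing, 1 fell, Mterf3, known in mice to restrain mitochondrial transcription, with 23.6 ± 1.65 CPM in pIVCL and 35.7 ± 2.04 CPM in sham (SD, n = 3 and 2; log2 fold change -0.59, adjusted p = 0.0487 by edgeR). Of 12 regulators of mitochondrial biogenesis, 1 fell, Gabpa, an ETS factor of nuclear respiratory genes, with 57.5 ± 1.55 CPM in pIVCL and 83.3 ± 4.64 CPM in sham (-0.53, adjusted p = 0.0388). Of 77 genes with a mitochondrial ribosome symbol (Mrpl or Mrps) 1 fell, Mrps36, with 17.9 ± 2.15 CPM in pIVCL and 32.5 ± 0.141 CPM in sham (-0.85, adjusted p = 0.0208). The list was taken by symbol alone, so Mrps36 is not shown here to encode a ribosomal protein. Of 96 cytosolic ribosome genes 4 rose, among them Rps15a (0.62), Rpl9-ps6 (1.203) and Rps26 (0.63), and the median of the list was 0.11. Rpl9-ps6 is named as a pseudogene, and reads of near-identical ribosomal copies may be split between genes. In Kupffer cells 0 genes of these lists passed with edgeR, and those with an unadjusted p under 0.05 were 5 of 50 assembly factors, 4 of 31 transcription genes, 1 of 10 regulators of biogenesis, 4 of 21 carrier genes, 3 of 18 citrate cycle genes, 7 of 77 mitochondrial and 11 of 94 cytosolic ribosome genes.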

How the data were processed

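The deposited counts were tables of molecules per cell and gene for 5 libraries, made by the authors with the BD WTA Rhapsody Analysis Pipeline version 1.9.1, per the file headers, which corrects molecular identifiers recursively. The build was GRCm39, per the submitters' processing notes; aligner settings and annotation: not given in the sources used here. Of 19815 cells, 17188 had at least 500 molecules, at least 200 genes and at most 25% mitochondrial molecules. Scrublet's automatic threshold marked 14 cells (0.081%), so the 3% with the highest scores, 516 cells, were removed instead. Cells were clustered with scanpy 1.11.5 and leidenalg 0.10.2 (2000 variable genes without the members, 30 components, 20 neighbours, resolution 1.4, set after looking at the clusters). A cluster was named when at least 3 markers and 50% of a class list were found in 25% of its cells at 2-fold the rest.

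Counts were summed per class and library and tested, in 7 classes with at least 20 cells in every library, with edgeR 4.0.16 (robust quasi-likelihood, TMM, filterByExpr, no covariate, all 5 libraries), with Benjamini-Hochberg adjustment over all genes of the class. DESeq2 1.42.0 was an alternative, beside other scalings, filters, batch fits, doublet and cluster settings and leaving out each library. The test was tried on simulated counts. Levels and shares are described in 10 classes with at least 10 cells in every library. Replicate numbers were not treated as pairing the samples. Named were all mitochondrial members, any nuclear member that passed, a list of isoforms and core subunits, and the 2 highest members of each class, with up to 4 genes per other list. A ribosomal gene that this rule names is not reported here. The members and lists were chosen with earlier results of these data known. Wilson intervals have a 95% level and cover counting error only. Mitochondrial rRNA and tRNA were not analysed here.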

Additional observations from a re-analysis of the deposited data

How the results depend on the processing

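The log2 fold change of mt-Nd4l kept its negative sign under all 16 alternatives in each class tested, and its adjusted p ran from 9.8e-07 to 0.194 in endothelial cells, from 2.34e-06 to 0.826 in monocytes and from 5.82e-07 to 0.533 in conventional dendritic cells. The number of members called depended on the setting, and the cause was not tested. In endothelial cells it was 1 (652 of 11263 genes), against 11 with no expression filter (1908 of 17023) and 3 with DESeq2 (1125 of 11263). It was 2 with batch as a term (375 of 11263). The strict cell filter (at most 10% mitochondrial, at least 1000 molecules) gave 2 (694 of 10973). Members among the clustering genes gave 2 (784 of 11049). It was 29 without pIVCL 1 (2625 of 11440), 0 without pIVCL 2 (200 of 11370) and 1 without pIVCL 3 (258 of 11282). The fit of batch 2021.3 alone sets 1 pIVCL library against 2 sham libraries, so its spread comes from sham and the lone library is assumed to vary alike. Its counts of members are not listed here, nor are those of fits without a sham library. In Kupffer cells it was 0 (14 of 9831), against 7 with no filter (423 of 15815) and 1 with DESeq2 (124 of 9831). It was 15 without pIVCL 1 (571 of 10221), 0 without pIVCL 2 (0 of 10198) and 0 without pIVCL 3 (1 of 10215). In stellate cells or fibroblasts it was 0 (62 of 7993), against 1 with no filter (391 of 14310) and 1 with batch as a term (366 of 7993). In T cells it was 0 with edgeR (0 of 7608) and 0 with DESeq2 (1 of 7608). In monocytes it was 1 (8 of 5879), against 4 with no filter (96 of 13452) and 0 with the strict filter (58 of 3599). It was 4 without pIVCL 1 (66 of 6583), 3 without pIVCL 2 (12 of 5528) and 0 without pIVCL 3 (6 of 5535). In conventional dendritic cells it was 1 (30 of 6514), against 4 with no filter (172 of 13833) and 0 with batch as a term (19 of 6514). It was 0 with no mitochondrial limit (40 of 7098), with the strict filter (1 of 4653) and with doublets kept (28 of 6825). It was 2 without pIVCL 1 (94 of 6360), 2 without pIVCL 2 (23 of 6206) and 0 without pIVCL 3 (46 of 6230). In NK cells or ILC1 it was 0 (0 of 2876), against 1 with DESeq2 size factors (1 of 2876) and 1 with DESeq2 (2 of 2876). It was 1 with no filter (53 of 11619) and 3 with no mitochondrial limit (28 of 3070). It was 3 without pIVCL 1 (3 of 2670), 0 without pIVCL 2 (0 of 2206) and 0 without pIVCL 3 (0 of 2180). With the replicate number as a block, without pIVCL 3, the count was 0 in endothelial cells (329 of 11282), 0 in monocytes (24 of 5535) and 1 in NK cells or ILC1 (5 of 2180). Deviations of same-numbered libraries correlated at -0.49 to 0.15 across genes. Only replicates 1 and 2 entered this check, and pIVCL 1 and pIVCL 2 lie in different batches. It therefore cannot settle whether the numbers pair the samples. Over all genes the calls ran from 61 to 2625 in endothelial cells (652 as reported) and from 0 to 571 in Kupffer cells (14). The log2 difference of the mitochondrial to nuclear ratio was, in batch 2021.3 alone, -0.26 in stellate cells or fibroblasts, -0.13 in T cells and -0.45 in NK cells or ILC1. With no mitochondrial limit it was -0.56 in stellate cells or fibroblasts, -0.11 in T cells, -0.75 in B cells, -0.66 in monocytes and -0.48 in NK cells or ILC1. With the strict filter it was -0.0852 in T cells, 0.21 in B cells, -0.29 in monocytes, -0.0587 in conventional dendritic cells and -0.17 in NK cells or ILC1, and with doublets kept -0.33 in NK cells or ILC1. Leaving out a library gave -0.52 to -0.32 in B cells. Classes with few cells limit the depth: B cells had 17 and 16 cells in sham 1 and 2, and plasmacytoid dendritic cells 19 in pIVCL 1.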
